A study of Mus musculus with 30 samples.

Results

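Transcript levels in testis were compared between mice lacking Clpp and wild-type mice. The comparison rests on the 6 testis arrays, 3 labelled ClpP KO and 3 labelled wild type, of 30 arrays in the series. They were chosen by the tissue and genotype in their titles. The mice were littermates on a C57BL/6 background, and the knockout (KO) label was the same for every tissue that was sampled. No treatment was given in the labels, ages are not given in the sources used here, and the KO and wild-type (WT) groups differed only in the genotype label. The other 24 arrays held liver, skeletal muscle, brain and heart of both genotypes and served for the spread of each gene and for a comparison between tissues.

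ClpP is the proteolytic part of a barrel-shaped protease of the mitochondrial matrix, which takes in unfolded proteins through a partner ATPase and degrades them. In the testis, spermatogonia divide, enter meiosis as spermatocytes and become haploid spermatids, which then build an acrosome, condense their nucleus and grow a tail. Sertoli cells carry the germ cells through these stages inside the tubule, and Leydig cells outside it make testosterone. The question was which stages and cell types of the testis differed in their transcripts when the protease was missing.

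Levels are log2 expression values, on which a difference of 1 is a 2-fold change. Changes are KO minus WT with the standard error (SE) of the fit, 3 arrays per genotype, and a gene was called at an adjusted p below 0.05, from limma fitted over all 17097 genes with Benjamini-Hochberg adjustment. Array medians of the 6 testis arrays lay between 3.30 and 3.33. A change whose lower group mean was under 4, close to those medians, is named a lower bound. Precision is limited by the number of arrays. The labels do not say whether each array held a separate animal, so p-values measure the spread between arrays. That spread was pooled within the 10 groups of all 30 arrays. An SE therefore also holds the spread in the other tissues and is not that of the testis arrays alone.

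The tissue label was checked first against defining genes of the testis. Insl3, a hormone of Leydig cells, lay between 13.22 and 13.25 on KO testis arrays and between 11.72 and 12.21 on WT testis arrays, and was at most 5.22 on the 24 arrays of other tissues. The germ cell helicase Ddx4 lay between 8.55 and 9.15 in KO testis and between 8.75 and 9.14 in WT testis, against at most 3.26 elsewhere. All 6 arrays therefore carried the transcripts of testis.

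The 3 KO arrays correlated at 0.991 or more with each other over 17097 genes, the 3 WT arrays at 0.977 or more, and KO with WT arrays at 0.827 to 0.892. WT replicate 3 stood apart: 83 genes lay there more than 2 above each of the other 5 testis arrays, and no gene did so on any of those 5. Most of the epididymis list was among them, and it is described at the end, with the counts that change without that array. The KO arrays also differed in extent. Among the 2260 genes called lower by at least 1, KO replicate 3 was the highest of the 3 in 76.3% and KO replicate 2 the lowest in 63.9%, and among the 2906 genes called higher by at least 1, KO replicate 2 was the highest in 57.4% and KO replicate 3 the lowest in 56.1%. The difference between 3' and 5' control probe sets of the GAPDH transcript, which grows with RNA breakdown, was 0.57, 0.51 and 0.56 on KO arrays and 0.86, 1.17 and 0.89 on WT arrays. Its part in the results was not tested.

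Clpp itself had 3.36, 2.93 and 3.17 in KO testis and 6.32, 5.88 and 6.93 in WT testis. Every KO array lay near the array median and every WT array well above it. The change was -3.23 ± 0.19 (SE, n = 3 per genotype; limma adjusted p = 1.91e-13), which is a lower bound.

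Over all genes 9605 of 17097 were called (56.2%), 5608 higher (32.8%) and 3997 lower (23.4%) in KO testis. Changes of at least 1 were called in 2906 genes (17.0%) as rises and in 2260 genes (13.2%) as falls. The 3 KO arrays lay all on one side of the 3 WT arrays in 10852 genes (63.5%). Of 7102 genes with a mean of at least 6 in either genotype, 83.7% were called, 50.9% higher and 32.8% lower. The change had a median of 0.02 over the 17097 genes and of 0.39 over those 7102. Of 15588 probe sets with no assigned gene 31.7% were called, 20.5% higher and 11.1% lower. In whole tissue, fewer cells of a type and less RNA per cell cannot be told apart, and this holds for every cell type below. Levels are relative to the other transcripts of an array. A rise per cell and a larger share of the RNA where other transcripts fell cannot be told apart either. With such a background a list is described by its counts beside these shares, and no list was tested as a set.

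**Figure D1:**
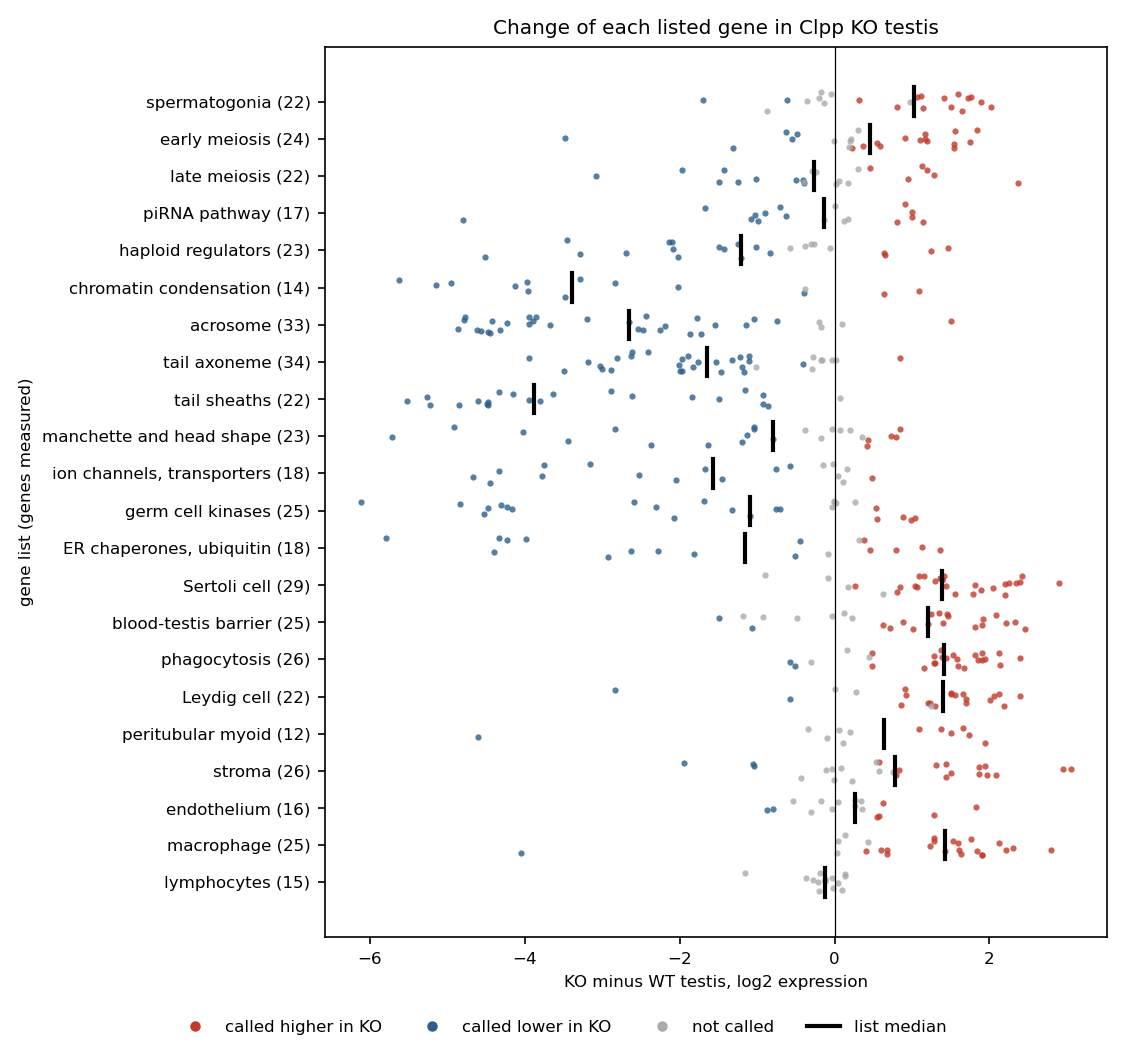
Change of each gene of 22 lists in KO testis, as KO minus WT log2 expression on the horizontal axis, with 1 point per gene coloured by its call and a black bar at the list median. Lists of the sperm head and tail reach medians of -3.39 and -3.88, and lists of Sertoli cells, phagocytosis, Leydig cells and macrophages lie at 1.39 to 1.43.

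Falls ranked 11 to 30 included genes of the sperm tail (Smcp, Akap4), of the sperm nucleus (H2bl1 and H2ap, histone variants), of the acrosome (Pla2g10, a secreted phospholipase), of the actin skeleton (Fscn3, a fascin of the sperm head) and of lipid and sugar chemistry (Acsbg2, an acyl-CoA synthetase, and St6galnac2, a sialyltransferase). The ranks were bounded by Paqr5, a membrane progestin receptor, at -5.44 and Irgc1, a GTPase of the immunity-related family, at -5.02. The changes of Irgc1, Acsbg2, Pla2g10, Dydc2 and Bpifa3 are lower bounds. The others of these ranks were Cby2, Theg, Cabs1, Lelp1, Eif4e, Dydc2, Bpifa3, Pkib, Tctex1d1 and Ubl4b, between -5.02 and -5.32. Fscn3 had 4.20, 3.78 and 3.85 in KO testis and 9.44, 9.24 and 9.35 in WT testis, with no overlap, and its change of -5.40 ± 0.13 is a lower bound (adjusted p = 1.99e-20). Eif4e, the cap-binding factor that nearly every cell uses to start translation, was measured by 1 probe set with 4.46, 4.06 and 4.88 in KO and 9.79, 9.46 and 9.69 in WT testis. On the KO arrays this probe set was near the level of weakly detected genes, and its change was -5.18 ± 0.18 (adjusted p = 8.75e-18). Which Eif4e transcripts this set reads was not tested, so a fall of all of them cannot be read from it.

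Rises were smaller, and ranks 11 to 30 ran from 2.75 for Fabp5 to 2.46 for Vim. Fabp5, a fatty acid carrier, had 9.84, 9.72 and 9.47 in KO testis and 6.56, 7.21 and 7.0 in WT testis, a change of 2.75 ± 0.48 (adjusted p = 1.81e-05). Serpina5, a protease inhibitor of Sertoli cells that male mice need for fertility, had 10.04, 9.74 and 9.36 in KO and 7.43, 7.14 and 7.16 in WT testis, and rose by 2.47 ± 0.12 (adjusted p = 5.15e-15). For both genes the lowest KO array lay well above the highest WT array. Msmo1, an enzyme of cholesterol synthesis, rose by 2.47 ± 0.37, the water channel Aqp8 by 2.48 ± 0.30 and Cpe, which trims peptide hormones, by 2.50 ± 0.20. Grb14, an adaptor of the insulin receptor, Rgs2, which ends G-protein signals, and Klf6, a zinc-finger transcription factor, rose by 2.71, 2.63 and 2.49. The X-linked ferritin-like gene Fthl17e rose by at least 2.74, a lower bound. Cmtm3, Iars, Jade3, Nrk, Fxyd6, Ctnnal1, Rap2b, Susd3, Nxnl2 and Aplp1 filled the other ranks, with the change of Nrk a lower bound.

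Sequence upstream of the genes was read from RefSeq (GRCm38.p6), 250 bases before the annotated start, and 13514 of 17097 genes had such a window. The windows of 4 genes are shown, chosen after the values were seen, because they lie at the low and the high end of the number of CG dinucleotides: the tail gene Smcp and the protamine Prm1, which fell, and the tRNA synthetase Mars1 and the tight junction gene Cldn11, which rose. Capitals mark CG dinucleotides, and each sequence is written 5′ to 3′ on the strand of its gene.
Smcp, chr3:92589074-92589323, minus strand: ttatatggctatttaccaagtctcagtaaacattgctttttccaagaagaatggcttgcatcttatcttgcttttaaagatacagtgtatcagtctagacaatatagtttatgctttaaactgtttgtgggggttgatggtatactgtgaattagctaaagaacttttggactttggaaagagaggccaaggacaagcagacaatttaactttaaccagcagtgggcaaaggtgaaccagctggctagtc
Prm1, chr16:10796824-10797073, minus strand: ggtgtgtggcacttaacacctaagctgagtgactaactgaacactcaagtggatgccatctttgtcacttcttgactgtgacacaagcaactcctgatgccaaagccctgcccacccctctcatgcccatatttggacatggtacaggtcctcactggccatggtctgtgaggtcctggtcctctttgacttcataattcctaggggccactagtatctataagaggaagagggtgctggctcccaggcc
Mars1, chr10:127311787-127312036, minus strand: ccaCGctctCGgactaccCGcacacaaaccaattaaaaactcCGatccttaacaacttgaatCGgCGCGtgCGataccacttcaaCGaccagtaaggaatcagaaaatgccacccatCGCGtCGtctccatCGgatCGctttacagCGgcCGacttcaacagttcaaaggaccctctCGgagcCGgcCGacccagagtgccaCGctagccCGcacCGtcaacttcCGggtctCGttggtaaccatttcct
Cldn11, chr3:31149670-31149919, plus strand: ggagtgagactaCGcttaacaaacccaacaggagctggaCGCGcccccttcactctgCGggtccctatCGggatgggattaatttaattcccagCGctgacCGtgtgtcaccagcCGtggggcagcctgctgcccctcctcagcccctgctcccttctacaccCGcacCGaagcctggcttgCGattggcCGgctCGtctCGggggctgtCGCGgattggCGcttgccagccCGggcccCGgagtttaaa
The windows of Smcp and Prm1 hold 0 CG, that of Mars1 holds 24 and that of Cldn11 holds 19. The genes that fell by 4 or more had a median of 3 CG per window (272 genes), those that fell by 3 to 4 a median of 5.25, by 2 to 3 a median of 9 and by 1 to 2 a median of 13. Genes with a mean of at least 6 that changed by under 0.25 had a median of 17.5 (660 genes), genes that rose by 1 to 2 a median of 16 and genes that rose by 2 or more a median of 12, against 13 over all 13514 windows. The count thus went down with the size of a fall, and it was not higher in larger rises. The letters GGGCGG, the core of the GC box bound by Sp1, were found on either strand in 17.3% of the windows of genes that fell by 4 or more and in 53.6% of all windows. The full cyclic AMP element TGACGTCA was found in 2.21% of the same group and in 2.52% of all windows, TATAAA in 10.7% and 10.7%, and GTTGCC, a stretch within the X box of RFX factors, in 20.2% and 12.4%. Matches that overlap another motif were kept. These are letter matches and say nothing of binding, and they carry no test.

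**Figure D2:**
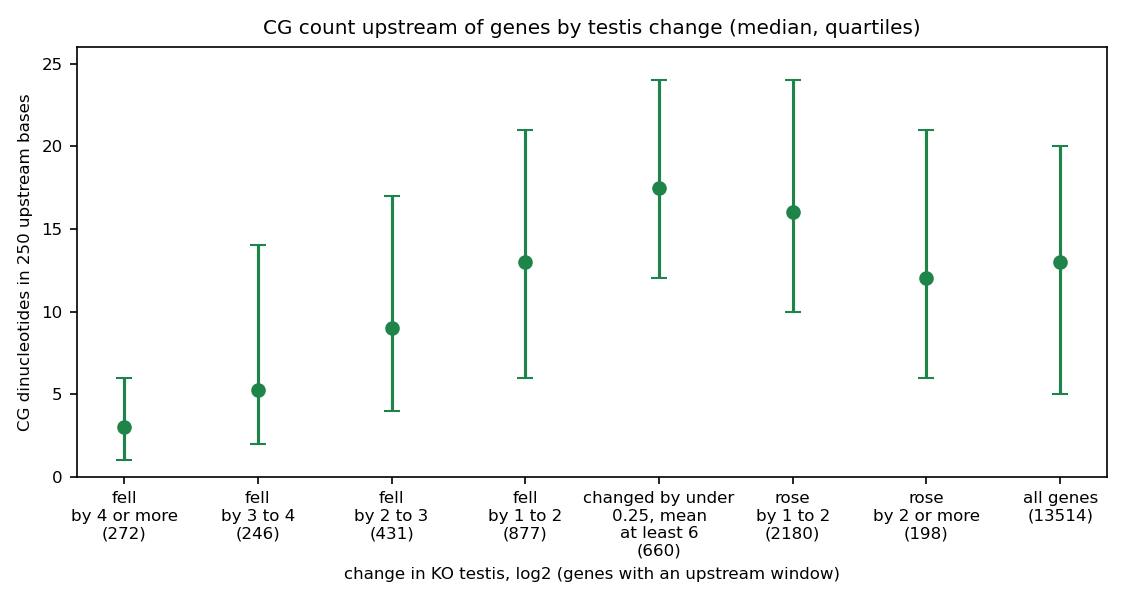
CG dinucleotides in the 250 bases upstream of the gene start, by change in KO testis on the log2 scale, with the number of genes in brackets. Points are medians and bars span the quartiles, and the median is 3 for falls of 4 or more, 17.5 for genes that changed by under 0.25, and 13 over all genes.

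Of the listed genes of germ cells before meiosis and at its start, more were higher than lower in KO testis. Of 22 spermatogonial genes 13 were higher (59.1%) and 2 lower (9.09%), with a median change of 1.02. Dmrt1, a transcription factor that holds spermatogonia out of meiosis, had 7.78, 7.84 and 6.94 in KO testis and 5.32, 5.59 and 5.60 in WT testis, and rose by 2.02 ± 0.18 (adjusted p = 2.65e-10). Stra8, the retinoic acid target that marks entry into meiosis, had 7.97, 7.83 and 7.58 in KO and 6.19, 6.19 and 5.85 in WT testis, a rise of 1.72 ± 0.12 (adjusted p = 6.28e-12). The groups did not overlap for either gene. The X-linked homeobox gene Rhox13 rose by 1.76 ± 0.13 and Id4, an inhibitor of differentiation in stem spermatogonia, by 1.65 ± 0.29. Etv5, which is also on the Sertoli cell list, and Sall4 are transcription factors of undifferentiated spermatogonia. They rose by 1.42 ± 0.34 and 1.14 ± 0.18, the second a lower bound. Other genes of that state did not pass the test: Gfra1, the receptor for GDNF, was at -0.87 (adjusted p = 0.135), Ret, its signalling partner, at -0.04, and Zbtb16, a repressor that keeps stem cells, at 0.98 (adjusted p = 0.0502). In a fit of the 6 testis arrays alone Zbtb16 was called (adjusted p = 0.00037). Gfra1 was called lower without WT replicate 1 (-1.29, adjusted p = 0.0372) or WT replicate 2 (-1.41, adjusted p = 0.0178). The 2 lower genes were Lhx1, at -1.70, and Pou5f1, at -0.62, both lower bounds. Without WT replicate 1 Pou5f1 was at -0.19 and not called (adjusted p = 0.484). It also lost its call without KO replicate 1 (-0.65, adjusted p = 0.0597) or KO replicate 2 (-0.50, adjusted p = 0.146).

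Among 24 genes of early meiosis 14 were higher (58.3%) and 5 lower (20.8%), with a median of 0.46. Of all genes with a mean of at least 6, as 18 of these had, 50.9% were higher and 32.8% lower, with a median of 0.39. The share of rises and the median of this list lay near that background. The recombination genes Meiob and Dmc1, which handle single-stranded DNA at breaks, rose by 1.84 ± 0.27 and 1.54 ± 0.12. Meiob had 7.30, 7.71 and 7.68 in KO testis, all above the 5.68, 5.91 and 5.58 of WT testis. Tex12, of the central element of the synaptonemal complex, rose by 1.55 ± 0.17. The meiotic cohesin Rec8 went the other way, at 3.54, 3.81 and 4.13 in KO and 7.25, 7.42 and 7.24 in WT testis, a fall of which -3.48 ± 0.28 is a lower bound (adjusted p = 5.14e-11). It stood far from the other genes of its list, since the next fall was that of the central element gene Syce2 at -1.31 ± 0.24. Syce1, Syce3 and the cohesin Stag3 fell by 0.63, 0.55 and 0.49. Without WT replicate 3 the count was 12 higher and 5 lower, with a median of 0.38.

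Late spermatocytes were split. Of 22 genes of late pachytene and division 6 were higher (27.3%) and 9 lower (40.9%), with a median of -0.26. Ccna1, the cyclin male meiosis needs to leave prophase, had 5.57, 4.85 and 6.23 in KO testis and 8.77, 8.49 and 8.61 in WT testis, and fell by 3.08 ± 0.19 (adjusted p = 4.02e-13). KO replicate 3 was the highest and KO replicate 2 the lowest of the KO arrays, and all lay below WT. Aurkc, the aurora kinase of meiotic divisions, changed by -1.97 ± 0.18 and Ybx2, which stores mRNA, by -1.43 ± 0.24. Psma8, the meiotic proteasome subunit, rose by 1.28 ± 0.18, Cks2, which the first division needs, by 1.13 ± 0.21, and its partner kinase Cdk1 by 0.95 ± 0.21. Hspa2, an Hsp70 chaperone made in pachytene, was at 11.19, 11.11 and 11.26 in KO and 11.29, 10.98 and 11.11 in WT testis. Its groups overlapped and it did not pass the test (0.06 ± 0.29, adjusted p = 0.889).

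The piRNA pathway silences transposons in germ cells. Of its 17 measured genes 5 were higher (29.4%) and 8 lower (47.1%), with a median of -0.14, so that both shares were nearer the background than those of the sperm lists. Kif17, a kinesin that moves the chromatoid body and CREM cofactors in spermatids, had 5.05, 4.15 and 4.52 in KO testis and 9.46, 9.46 and 9.20 in WT testis and fell by 4.80 ± 0.22 (adjusted p = 1.73e-15). Among genes of the pathway itself Gtsf1 changed by -1.67 ± 0.27 and Tdrd7 by -1.03 ± 0.13, and Asz1, Tdrd5 and Mov10l1 rose by 1.14, 1.0 and 1.0. The Piwi protein Piwil1 was at 0.18 (adjusted p = 0.427).

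Regulators of transcription and RNA in spermatids were mostly lower, 14 of 23 (60.9%) against 4 higher (17.4%), with a median of -1.21. Crem, the activator of many post-meiotic genes, had 7.18, 6.59 and 7.43 in KO testis and 9.32, 9.05 and 9.12 in WT testis, and fell by 2.10 ± 0.16. Its coactivator Fhl5 had 5.98, 5.53 and 7.17 in KO and 10.96, 10.59 and 10.66 in WT testis, and fell by 4.51 ± 0.28 (adjusted p = 4.14e-13). In both genes the KO arrays lay apart from the WT arrays, and KO replicate 3 was the highest of them. Sox5 changed by -3.45 ± 0.25, the ciliary regulator Rfx3 by -3.29 ± 0.11 as a lower bound, and the spermatid poly(A) polymerase Papolb by -2.69 ± 0.24. The 4 that rose were the X-linked TFIID subunit Taf7l by 1.47 ± 0.16, Adad2 by 1.24 ± 0.18, the polyadenylation factor Cstf2t by 0.65 and the histone demethylase Kdm3a by 0.64.

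The genes of the finished spermatid fell together. In 4 lists of chromatin condensation, acrosome, axoneme and tail sheaths, 86 of 102 genes were lower (84.3%) and 4 higher (3.92%), with a median change of -2.45. KO replicate 3 was the highest of the KO arrays for 84 of the 102 and KO replicate 2 the lowest for 85. These arrays had also stood at either end for all genes called lower.

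Nuclear condensation replaces histones first by transition proteins and then by protamines. Prm1 had 10.89, 9.88 and 10.80 in KO testis and 13.47, 13.20 and 13.40 in WT testis, and fell by 2.83 ± 0.71 (adjusted p = 0.00124). The transition protein Tnp2 had 9.06, 8.22 and 9.29 in KO and 12.97, 12.54 and 12.96 in WT testis, and fell by 3.97 ± 0.59. Both stayed above the level of most genes on every KO array. Of the 14 genes of this list 11 were lower (78.6%) and 2 higher (14.3%), with a median of -3.39. The list was led by histone variants of late spermatids, H2al2a at -5.63 ± 0.23, H2bl1 at -5.15 ± 0.24 and Hils1 at -4.13 ± 0.45, and by the protamine relative Prm3 at -4.95 ± 0.27. The ubiquitin ligase Rnf8 was one of the 2 that rose, by 1.09 ± 0.11.

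The acrosome is the vesicle that lets sperm enter the egg coat. Of 33 genes of the acrosome and of sperm and egg contact 29 were lower (87.9%) and 1 higher (3.03%), with a median of -2.66. Izumo1, the sperm protein that binds its partner on the egg, had 5.40, 4.28 and 5.72 in KO testis and 9.48, 9.50 and 9.38 in WT testis, a change of -4.32 ± 0.24 (adjusted p = 5.57e-14). Plcz1, the phospholipase that starts calcium waves in the egg, had 6.25, 4.89 and 6.97 in KO and 10.56, 10.56 and 10.41 in WT testis, a change of -4.47 ± 0.30. The WT arrays of both genes were nearly level, and the KO arrays spread more widely. The falls were led by Actl7a, an actin relative of the acrosome, at -4.86 ± 0.25, followed by Spaca7 at -4.78, Lyzl4 at -4.77 and Izumo3 at -4.62. The protease Acr changed less, by -2.54 ± 0.16. Tex101, a surface protein carried from spermatocytes onward, was the 1 gene that rose, by 1.5 ± 0.13.

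The tail consists of an axoneme of microtubules and, around it, mitochondria, dense fibres and a fibrous sheath. Of 22 sheath, fibre and capsule genes 21 were lower (95.5%) and 0 higher, with a median of -3.88. At an unadjusted p under 0.05 from limma the counts were also 21 and 0. Smcp, the cysteine-rich protein of the mitochondrial capsule, had 6.69, 6.06 and 7.38 in KO testis and 12.33, 11.48 and 12.15 in WT testis, and fell by 5.27 ± 0.41 (adjusted p = 3.91e-11). Akap4, the anchor of the fibrous sheath, had 5.71, 5.33 and 6.79 in KO and 11.31, 10.98 and 11.20 in WT testis, and fell by 5.22 ± 0.32. The gap between the groups was over 4 for both genes. Spata3 and Armc12, which lines up mitochondria along the tail, changed by -5.52 ± 0.22 and -4.85 ± 0.25. The selenoprotein Gpx4, which hardens the capsule and also guards lipids in every cell, changed less, by -1.49 ± 0.13. The gene not called was Oaz3, an antizyme of spermatids, at 0.07 (adjusted p = 0.726).

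The axoneme list was lower too, 26 of 34 genes (76.5%) with 1 higher (2.94%), but its median of -1.65 was smaller in size than that of the sheaths. Ropn1, a scaffold of the fibrous sheath, led with 7.16, 6.09 and 7.46 in KO testis and 11.05, 10.61 and 10.90 in WT testis, a change of -3.95 ± 0.25. Tekt2, a tektin along the microtubules, changed by -3.50 ± 0.28, the radial spoke gene Rsph6a by -3.18 ± 0.22 and the inner arm dynein chain Dnali1 by -3.03 ± 0.17. The dynein heavy chains Dnah5 at -0.17, Dnah11 at -0.29 and Dnah17 at -0.16, did not pass the test, and neither did the radial spoke genes Rsph1 at -0.03 and Rsph4a at 0.02. All of these but Rsph1 lay near the array median in at least 1 genotype. Foxj1, the master regulator of motile cilia, had 2.83, 2.87 and 3.10 in KO testis and 6.15, 6.00 and 5.65 in WT testis, so that its change of -3.0 is a lower bound. The 1 gene of the list called higher, Iqcg, had another probe set at -1.56.

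Of 23 genes of the manchette, centriole and head-tail coupling 12 were lower (52.2%) and 5 higher (21.7%), or 12 and 3 without WT replicate 3, and the median was -0.80. Spem1, which clears cytoplasm from the sperm neck, had 4.23, 3.40 and 4.42 in KO testis and 10.23, 9.09 and 9.86 in WT testis, and fell by 5.71 ± 0.23 (adjusted p = 1.33e-16). The coupling genes Pmfbp1 and Sun5, without which mouse sperm lose their heads, changed by -4.91 ± 0.22 and -4.02 ± 0.26, and Sun3 of the manchette by -3.44 ± 0.24. Of the genes of transport along cilia Ift20 rose by 0.79 ± 0.14, while Ift74 fell by 1.04 and Ift27 by 0.80.

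Calcium entry through CatSper drives the whip-like beat of sperm. Of 18 channels and transporters 12 were lower (66.7%) and 1 higher (5.56%), or 12 and 0 without WT replicate 3, with a median of -1.57. Catsper1, a pore subunit, had 3.04, 2.91 and 3.82 in KO testis and 7.88, 7.42 and 7.81 in WT testis, and its change of -4.45 ± 0.16 is a lower bound (adjusted p = 1.4e-17). Catsper3, another pore subunit, and Efcab9, the calcium sensor of the channel, changed by -4.67 ± 0.17 and -4.34 ± 0.26, the first a lower bound. The auxiliary subunits Catsperg1 and Catsperg2 were at 0.11 and -0.02 and did not pass the test. Slc22a14, a riboflavin carrier of sperm, changed by -3.78 ± 0.27.

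Of 25 germ cell kinases and phosphatases 15 were lower (60%) and 5 higher (20%), or 15 and 3 without WT replicate 3, with a median of -1.09. Over the 8 of them above the median mean of all arrays, the median was 0.14. That mean includes the 24 arrays of other tissues, and 20 of the 25 had a mean of at least 6 in either testis genotype. The testis-specific serine kinases, made after meiosis, lay at the lower end. Tssk6, which histone removal needs, had 5.65, 4.72 and 5.48 in KO testis and 11.71, 11.04 and 11.46 in WT testis, a change of -6.12 ± 0.22 (adjusted p = 1.01e-17). Tssk3, Tssk2 and Tssk4 changed by -4.84 ± 0.22, -4.53 ± 0.29 and -4.48 ± 0.16, the last a lower bound. Stk31, a kinase of spermatocytes with a Tudor domain, rose by 0.99 ± 0.14. Ppp1r2, called higher, had 3 further probe sets, of which 1 was lower, at -2.37.

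Of 18 chaperones of the germ cell reticulum and ubiquitin genes 11 were lower (61.1%) and 5 higher (27.8%), with a median of -1.16. Over the 10 of them above the median mean of all arrays, the median was 0.35. The 24 arrays of other tissues enter that mean too, and 16 of the 18 had a mean of at least 6 in either testis genotype. Ubqlnl, a ubiquilin of spermatids, had 3.46, 3.15 and 3.87 in KO testis and 9.53, 9.14 and 9.19 in WT testis, and its change of -5.79 ± 0.17 is a lower bound. Klhl10, which brings substrates to a spermatid ubiquitin ligase, changed by -4.40 ± 0.30, the ligase Rnf133 by -4.34 ± 0.15 and Pdilt, a disulfide isomerase that sperm fertility needs, by -4.23 ± 0.15 as a lower bound. The widely expressed chaperones of the same compartment rose, P4hb by 1.36 ± 0.17, Canx by 1.13 ± 0.12 and Hspa5 by 0.79 ± 0.15. Cul3, called lower, had 4 further probe sets that were higher, at 0.78 to 1.48.

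**Figure D3:**
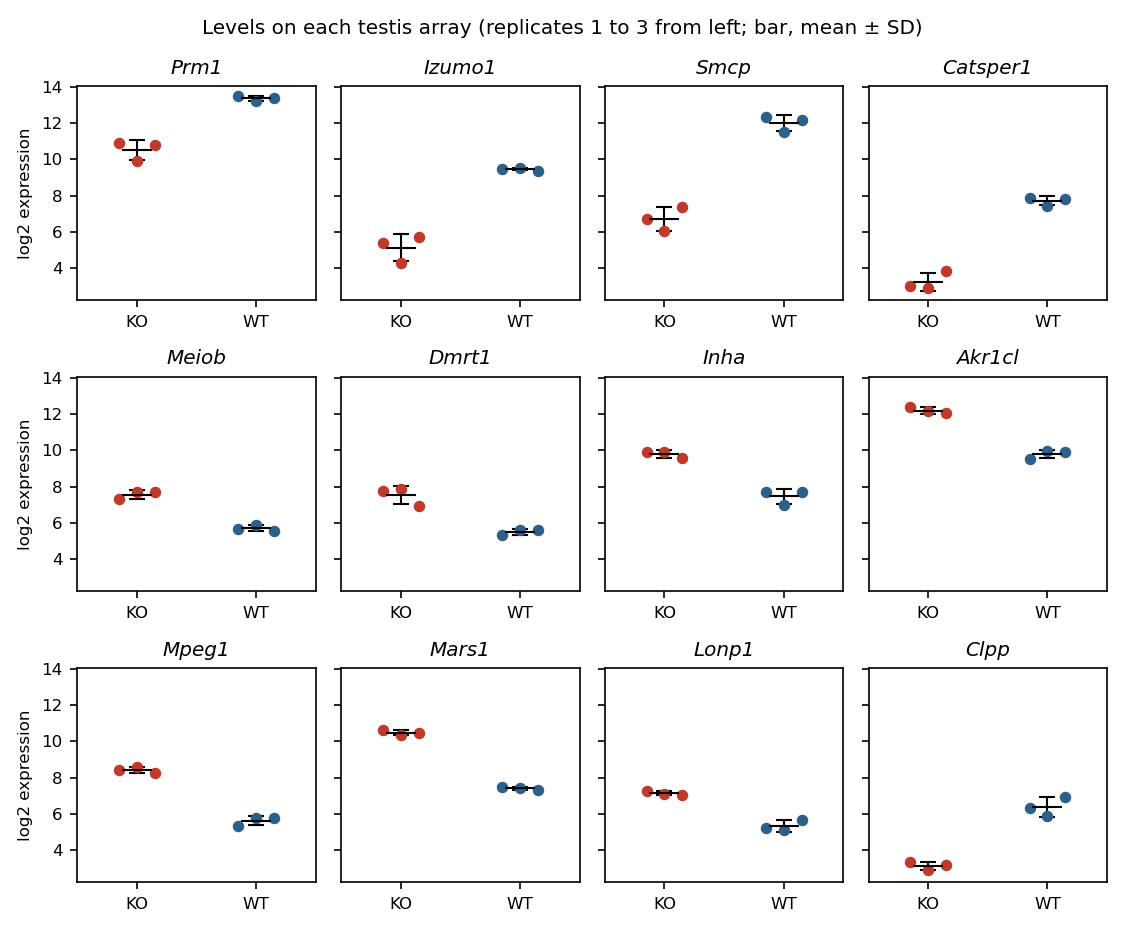
Log2 expression of 12 genes on each testis array, KO left and WT right, with points in order of replicate number and bars at the mean ± SD (n = 3). The sperm genes Prm1, Izumo1, Smcp and Catsper1 and the targeted gene Clpp are lower on every KO array, and Meiob, Dmrt1, Inha, Akr1cl, Mpeg1, Mars1 and Lonp1 are higher on every KO array.

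Germ cells use their own copies of many enzymes that other cells read from a related gene. In 25 such pairs with both members measured, the germ cell gene was lower in 16, higher in 4 and not called in 5, and the related gene was higher in 17, lower in 4 and not called in 4. The germ cell gene had the lower change of the pair in 23 of 25, with medians of -1.16 and 1.13. One pair, Hk1 at -4.41 with Hk2 at 1.89, rests on a gene that many tissues use and that has a spermatid isoform, which the probe set was not shown to single out. Without it the counts were 15 lower, 4 higher and 5 not called of 24, and the germ cell gene had the lower change in 22. The glycolytic enzyme Gapdhs, of the tail, had 7.53, 6.62 and 7.94 in KO testis and 12.15, 11.64 and 12.13 in WT testis, a change of -4.61 ± 0.44, and its relative Gapdh rose by 1.33 ± 0.16. Pgk2 and Pgk1 were at -4.08 ± 0.37 and 1.07 ± 0.13. In 10 pairs, or 9 without Hk1, the germ cell gene fell while the other rose, among them Atp6v1e2, of the acrosomal proton pump, at -4.14 and Hspa1l at -5.01. Both members fell in 3 pairs, among them the ketone body enzymes Oxct2a at -5.57 and Oxct1 at -1.17 and the aldolases Aldoart1 at -4.81 and Aldoa at -0.28. Cytochrome c differed from this, since Cyct, the testis form, rose by 0.29 ± 0.11 while Cycs, the form of other cells, rose by 2.25 ± 0.12, with 11.04, 10.81 and 10.65 in KO and 8.55, 8.29 and 8.91 in WT testis. The calls of Cyct and Aldoa each depended on single arrays. Cyct was not called without KO replicate 3 (0.15, adjusted p = 0.253), WT replicate 2 (0.27, adjusted p = 0.0683) or WT replicate 3 (0.27, adjusted p = 0.0679). Aldoa was not called without KO replicate 2 (-0.24, adjusted p = 0.127), KO replicate 3 (-0.20, adjusted p = 0.192) or WT replicate 3 (-0.15, adjusted p = 0.306). The exceptions to the order were Ldhc at -0.57 (not called here, adjusted p = 0.00949 in a fit of the testis arrays alone and 0.000494 without muscle WT replicate 1) with Ldha at -1.24, and Taf7l at 1.47 with Taf7 at -0.02, which lay near the array median on all 6 arrays. For Oxct1, Ppp3cc, Papola and Rpl39 a further probe set moved the other way. The chaperone genes Calr3 at 0.31 (not called) and Clgn at 0.46 each had 2 further probe sets that were lower, at -4.20 and -3.94 for Calr3 and at -0.88 and -0.78 for Clgn. Clgn was not called without KO replicate 3 (0.28, adjusted p = 0.177) or WT replicate 3 (0.44, adjusted p = 0.0505). Without the pairs of Hk1, Calr3 and Clgn the counts were 15 lower, 3 higher and 4 not called of 22.

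**Figure D4:**
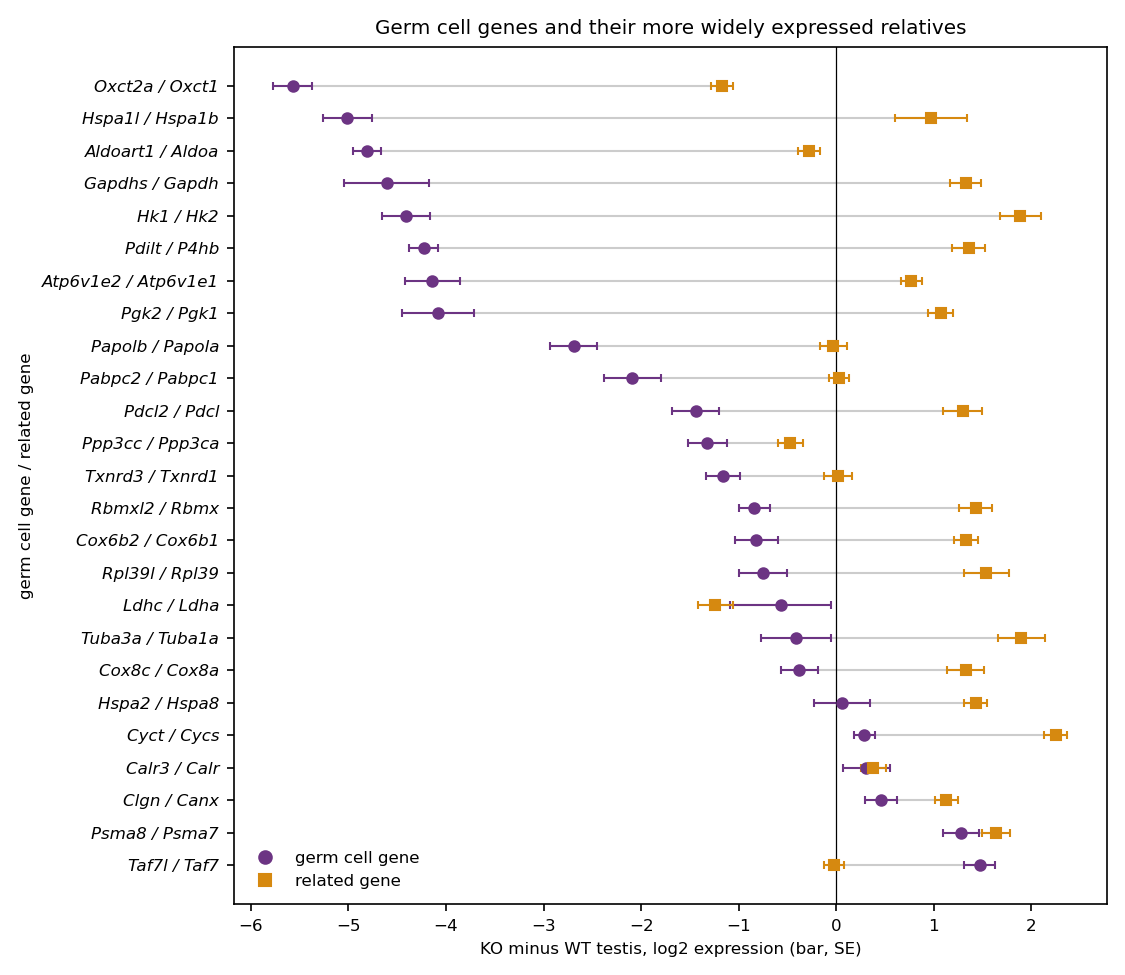
Change in KO testis (KO minus WT, log2, bars ± SE) of 25 germ cell genes, as circles, and of their more widely expressed relatives, as squares, sorted by the germ cell gene. The circle lies left of the square in 23 of 25 pairs.

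Over the lists of Sertoli, Leydig, myoid, stromal and endothelial cells and macrophages 86 of 129 genes were higher (66.7%) and 9 lower (6.98%), with a median change of 1.23. The share differed between these lists and was close to that of all genes in endothelium.

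Sertoli cell genes had the highest share of rises among the 33 lists, 25 of 29 (86.2%) with 0 lower, and a median of 1.39. At an unadjusted p under 0.05 from limma the counts were also 25 and 0. Inha, the alpha chain of the hormone inhibin, had 9.93, 9.90 and 9.55 in KO testis and 7.69, 6.96 and 7.72 in WT testis, and rose by 2.34 ± 0.23 (adjusted p = 1.87e-09). Wt1, a transcription factor that keeps Sertoli cell identity, had 7.37, 7.91 and 7.65 in KO and 6.04, 5.74 and 5.50 in WT testis, and rose by 1.89 ± 0.13. Kitl, the ligand of the Kit receptor of spermatogonia, had 8.48, 8.44 and 8.38 in KO and 5.91, 6.62 and 6.17 in WT testis, and rose by 2.20 ± 0.17. None of these groups overlapped. Shbg, a carrier of sex steroids, rose by 2.90 ± 0.18 as a lower bound, Cyp26b1, which breaks down retinoic acid, by 2.42 ± 0.25 and the transcription factor Sox8 by 2.40 ± 0.16, also a lower bound. Aard, a Sertoli cell gene with ankyrin repeats of little known role, lay between 11.68 and 12.03 in KO and between 9.70 and 9.92 in WT testis. Among the genes not called were the growth factor genes Inhba at 0.17, Fst at 0.62 and Fgf2 at -0.09. A fit of the testis arrays alone called Fst (adjusted p = 0.0125).

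Junctions of Sertoli cells close the tubule behind the spermatogonia. Of 25 genes of the junctions and barrier 17 were higher (68%) and 2 lower (8%), with a median of 1.21. Cldn11, the main claudin of this barrier, had 8.03, 7.56 and 7.45 in KO testis and 5.96, 5.61 and 5.71 in WT testis, and rose by 1.92 ± 0.17 (adjusted p = 5.19e-10). The filament gene Vim had 10.60, 10.90 and 10.46 in KO and 8.05, 8.28 and 8.24 in WT testis, and rose by 2.46 ± 0.35. The integrins Itga6 and Itgb1 and the gap junction gene Gja1 rose by 2.33, 2.21 and 2.08. Nectin3, the adhesion protein on the spermatid side of the Sertoli contact, fell by 1.49 ± 0.30, with 8.60, 8.85 and 9.27 in KO and 10.33, 10.58 and 10.26 in WT testis. Nectin2, the other gene called lower, had a further probe set that was higher, at 1.29. Krt18, a keratin of simple epithelia, was at 2.52, 3.06 and 3.67 in KO testis and at 2.80, 2.62 and 7.38 in WT testis, the last on WT replicate 3, and did not pass the test (adjusted p = 0.142). It was called lower without WT replicate 1 (-1.91, adjusted p = 0.0204) or WT replicate 2 (adjusted p = 0.0122).

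Genes for the uptake of dying cells and residual bodies were higher in 21 of 26 (80.8%) and lower in 2 (7.69%), or 22 and 1 without WT replicate 3, with a median of 1.41. Mertk, the receptor by which Sertoli cells take up germ cell remains, had 7.24, 6.96 and 7.09 in KO testis and 4.68, 5.12 and 5.06 in WT testis, and rose by 2.1 ± 0.24 (adjusted p = 3.18e-08). The lysosomal protease Lgmn rose by 2.39 ± 0.17, the complement chain C1qa by 2.12 ± 0.26 and the lipid scavenger Cd36 by 1.94 ± 0.47. Scarb1, a scavenger receptor for phosphatidylserine and lipoprotein, fell by 0.58 ± 0.22. It was not called without KO replicate 2 (-0.57, adjusted p = 0.0688), KO replicate 3 (-0.56, adjusted p = 0.0696), WT replicate 1 (-0.45, adjusted p = 0.143) or WT replicate 3 (-0.47, adjusted p = 0.124).

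Leydig cell genes were higher in 17 of 22 (77.3%) and lower in 2 (9.09%), or 17 and 1 without WT replicate 3, with a median of 1.40. Transcripts of the chain to testosterone rose at each step named here. Star, which brings cholesterol into mitochondria, had 9.15, 8.99 and 8.02 in KO testis and 7.14, 7.45 and 6.93 in WT testis, and rose by 1.55 ± 0.21. Cyp11a1, the first enzyme, rose by 0.91 ± 0.14, Hsd3b1 by 2.19 ± 0.11, Cyp17a1 by 1.70 ± 0.36 and Hsd17b3, which makes testosterone, by 2.13 ± 0.12. Hsd3b1 had 10.64, 10.52 and 10.54 in KO and 8.36, 8.43 and 8.33 in WT testis, with little spread in either group. Akr1cl, an aldo-keto reductase of Leydig cells, rose by 2.39 ± 0.15 and the hormone gene Insl3 by 1.23 ± 0.20. Nr4a1, a rapidly induced nuclear receptor that luteinizing hormone raises in Leydig cells, went the other way with 4.99, 4.91 and 5.61 in KO and 8.10, 8.06 and 7.87 in WT testis, a change of -2.84 ± 0.64 (adjusted p = 0.000441). Hsd11b1, a marker of adult Leydig cells, was at 0.28 (adjusted p = 0.285).

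Macrophage genes were higher in 20 of 25 (80%) and lower in 1 (4%), with a median of 1.43. Mpeg1, a pore protein of phagocytes, had 8.43, 8.59 and 8.27 in KO testis and 5.35, 5.77 and 5.77 in WT testis, and rose by 2.80 ± 0.26 (adjusted p = 6.83e-10). Pf4 rose by 2.30 ± 0.27, the signalling adaptor Tyrobp by 2.21 ± 0.29 and the mannose receptor Mrc1 by 1.59 ± 0.25. Csf1r, the receptor that macrophages need to survive, rose less, by 0.68 ± 0.20. The 1 gene that fell was Aif1, also called IBA1 in macrophages and microglia, with 6.67, 6.05 and 6.79 in KO testis and 10.81, 10.34 and 10.51 in WT testis, a change of -4.05 ± 0.23. Its direction was opposite to that of the other genes of the list that passed the test. The mean over 15 lymphocyte genes lay between 2.93 and 3.27 on the 6 arrays, below the array medians, and 1 of the 15 had a mean of at least 6. A lack of change can therefore not be read from this list. With limma 0 of the 15 were called in either direction, against 56.2% of all genes, and 2 were lower and 0 higher at an unadjusted p under 0.05. Without WT replicate 3 the count was 1 lower, and the T cell receptor chain Cd3e lay between 2.93 and 3.34 on all 6 arrays. Without KO replicate 1 Cd3e was called, at -0.29 (adjusted p = 0.025).

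Of 26 genes of stroma and matrix 14 were higher (53.8%) and 3 lower (11.5%), with a median of 0.77. Timp1, an inhibitor of matrix proteases, had 6.28, 6.08 and 5.84 in KO testis and 2.91, 2.84 and 3.28 in WT testis, a rise of which 3.06 ± 0.24 is a lower bound (adjusted p = 3.54e-11). Igfbp3 rose by 2.95 ± 0.30, also a lower bound, and the proteoglycan Dcn by 2.09 ± 0.21. The chains of fibrillar collagen I, Col1a1 and Col1a2, lay near the array median on every array and did not pass the test, while Col3a1 rose by 1.44 ± 0.49. Without WT replicate 1 Col3a1 was at 0.93 and not called (adjusted p = 0.139). Col5a1 fell by 1.94 ± 0.27.

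Of 12 genes of peritubular myoid and smooth muscle cells 6 were higher (50%) and 1 lower (8.33%), with a median of 0.64. Myl9 and Mylk, of the contractile apparatus, rose by 1.94 ± 0.42 and 1.66 ± 0.25. Actg2, smooth muscle gamma actin, had 4.76, 3.92 and 4.56 in KO testis and 9.22, 8.58 and 9.25 in WT testis, and fell by 4.61 ± 0.29. As with Aif1, 1 gene of a rising list stood far below the rest. In endothelium 5 of 16 genes were higher (31.2%) and 2 lower (12.5%), with a median of 0.27, which is close to the shares over all genes. Cldn5, a claudin of vessels, rose by 0.62 ± 0.20. Of 3 red blood cell genes Hba-a1, a globin chain, rose by 1.41 ± 0.27, with 9.56, 10.79 and 11.10 in KO and 9.45, 9.05 and 8.70 in WT testis. Alas2 and Slc4a1 were at 0.14 and -0.33 and did not pass the test, though Slc4a1 did in a fit of the testis arrays alone (adjusted p = 0.0441).

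Around the missing protease, 13 of 23 genes of mitochondrial proteases, matrix chaperones and partners of ClpP were higher (56.5%) and 4 lower (17.4%), Clpp among these 4, with a median of 0.55. Of all genes with a mean of at least 6, as 20 of these 23 had, 50.9% were higher and 32.8% lower, with a median of 0.39. The share of rises and the median of the list lay near that background. For some of the called genes of the list another probe set moved the other way, which bears on its counts. Yme1l1, an inner membrane protease, was at -1.42 with further sets at 0.99 and 1.30, and Afg3l1 at -1.33 with another at 0.29. Pmpca, of the presequence protease, was at 0.81 with another at -1.63, and Dnaja3, called higher, had another at -1.15. Lonp1, the other main ATP-dependent protease of the matrix, had 7.27, 7.07 and 7.06 in KO testis and 5.20, 5.09 and 5.68 in WT testis, and rose by 1.81 ± 0.12 (adjusted p = 1.81e-12). Its mean change over the other 4 tissues was 0.13, and the difference of 1.68 ± 0.14 passed the test (adjusted p = 8.01e-11). Hspe1, the co-chaperone of mitochondrial Hsp60, rose by 1.56 ± 0.15. The ribosome factors Eral1 and Noa1 rose by 0.84 and 1.04. Mipep, which trims imported precursors, fell by 2.19 ± 0.14, with 7.91, 7.58 and 8.16 in KO and 10.27, 10.00 and 9.96 in WT testis. Spg7, Parl, Pmpcb and Trap1 were between -0.28 and 0.00 and did not pass the test, though Trap1 did with the mean of its probe sets (-0.32, adjusted p = 0.0213).

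The integrated stress response raises Atf4 and its targets when translation is held back. Of its 29 genes 14 were higher (48.3%) and 1 lower (3.45%), or 16 and 1 without WT replicate 3, with a median of 0.49. Atf4 itself had 9.09, 9.35 and 9.22 in KO testis and 7.42, 7.28 and 7.67 in WT testis, and rose by 1.77 ± 0.15 (adjusted p = 1.22e-10). Among carriers and enzymes of amino acid supply, the serine enzyme Psat1 rose by 2.21 ± 0.38, the carrier chain Slc3a2 by 2.06 ± 0.14, the transaminase Gpt2 by 2.06 ± 0.19 and the arginine carrier Slc7a1 by 1.96 ± 0.22. The regulators Ddit3 at 0.24, Atf3 at -0.07 and Trib3 at -0.26, the asparagine enzyme Asns at -0.90 and the hormone Fgf21 at -0.53 did not pass the test. A fit of the testis arrays alone called Asns (adjusted p = 0.00235) and Fgf21 (adjusted p = 0.0145) lower. Slc7a11, the cystine carrier, fell by 1.0 ± 0.16 as a lower bound.

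Enzymes that load tRNA followed the same side. Of 19 cytosolic genes 15 were higher (78.9%) and 1 lower (5.26%), with a median of 0.55. Mars1, for methionine, had 10.62, 10.33 and 10.47 in KO testis and 7.46, 7.45 and 7.30 in WT testis, and rose by 3.07 ± 0.12 (adjusted p = 7.35e-17). Iars, for isoleucine, had 10.54, 10.51 and 10.72 in KO and 7.85, 8.08 and 7.77 in WT testis and rose by 2.69 ± 0.12, and Gars, for glycine, rose by 2.37 ± 0.13. These 3 stood apart from most others, and Hars, for histidine, rose by 0.42. Vars, for valine, fell by 2.24 ± 0.18, with 5.83, 5.74 and 5.96 in KO and 8.41, 7.67 and 8.18 in WT testis. Of 15 mitochondrial synthetases 8 were higher (53.3%) and 3 lower (20%), with a median of 0.36. Hars2 rose by 1.38 ± 0.15 and Aars2 fell by 2.28 ± 0.18.

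Apoptosis genes and p53 targets were higher in 15 of 25 (60%) and lower in 5 (20%), with a median of 1.10. For Mcl1, Bcl2l11 and Mdm2, all called higher, another probe set was lower, at -1.38, -1.85 and -1.55, which bears on these counts. Trp53inp1 and Sesn1, both targets of p53, rose by 1.5 ± 0.23 and 1.45 ± 0.18, and Bcl2l2, a protective Bcl-2 relative that spermatogenesis needs, rose by 1.83 ± 0.13. Sesn1 had 8.91, 8.85 and 8.68 in KO testis and 7.35, 7.34 and 7.40 in WT testis. The death receptor Tnfrsf10b fell by 2.04 ± 0.16, a lower bound, but was at -0.13 (adjusted p = 0.283) once probe sets that can match several transcripts were left out. Bbc3 at -0.33 and Fas at 0.41 did not pass the test. Bbc3 was called in a fit of the testis arrays alone (adjusted p = 0.041), and Fas without KO replicate 3 (0.60, adjusted p = 0.017) or WT replicate 3 (0.54, adjusted p = 0.0367). The direction thus differed between targets.

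Genes of DNA replication and mitosis were higher in 13 of 29 (44.8%) and lower in 7 (24.1%), with a median of 0.38. A mean of at least 6 was found for 22 of the 29, and over all such genes 50.9% were higher and 32.8% lower. The median there was 0.39, so the list did not stand out from that background in its rises. Among replication and cycle genes, the helicase subunits Mcm4 rose by 1.74 ± 0.21 and Mcm5 by 1.67 ± 0.16 and the cyclin Ccna2 by 1.79 ± 0.14. Genes of division were among the 7 that were lower, as was the replication factor Cdc6 at -0.54, a lower bound: Plk1 at -2.54 ± 0.13, Aurka at -1.23 ± 0.17 and Ccnb2 at -0.98 ± 0.18. Plk1 had 5.49, 5.49 and 5.68 in KO testis and 8.33, 7.92 and 8.02 in WT testis.

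Retinoic acid starts each round of germ cell differentiation. Of 21 genes of its supply and response 10 were higher (47.6%) and 2 lower (9.52%), with a median of 0.09. Rxra, called higher, had further probe sets that were lower, at -2.54 and -0.30. Crabp1, its carrier in spermatogonia, rose by 2.46 ± 0.17, with 6.16, 6.82 and 6.55 in KO testis and 4.17, 4.18 and 3.79 in WT testis. Aldh1a1, which makes retinoic acid, rose by 1.64 and Rdh10, which prepares its precursor, by 1.61. Aldh1a2, the germ cell form, was at -0.35 (adjusted p = 0.197). Dhrs4 fell by 2.37 ± 0.16.

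Antioxidant genes were higher in 18 of 30 (60%) and lower in 8 (26.7%), with a median of 0.90. All genes with a mean of at least 6, as 26 of these had, were higher in 50.9% and lower in 32.8%, with a median of 0.39. The 2 genes of the list that changed most were thioredoxins of the sperm acrosome and tail, Txndc8 at -5.00 ± 0.29 and Txndc2 at -4.05 ± 0.22. Gsta4, which clears lipid aldehydes, had 10.96, 11.03 and 10.84 in KO testis and 8.51, 8.56 and 8.71 in WT testis, and rose by 2.35 ± 0.14. Txn1, the thioredoxin of other cells, rose by 2.0 ± 0.19 and the mitochondrial peroxiredoxin Prdx3 by 1.77. The mitochondrial dismutase Sod2 was at -0.05 and did not pass the test.

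The testis was then set against the other tissues in the same fit. The mean KO effect over liver, muscle, brain and heart was called in 688 genes (4.02%), and the testis effect differed from that mean in 9483 genes (55.5%), above it in 5500 and below it in 3983. Of the 688 genes 457 (66.4%) were called in testis, against 56.2% of all genes, and they made up 4.76% of the testis calls. Of the 457, 105 were higher in both and 67 lower in both. Opposite directions were found in 38 that were lower in testis and higher elsewhere, and in 247 that were higher in testis and lower elsewhere. On 1 array of the other tissues, muscle WT replicate 1, sperm transcripts were found, with Prm1 at 8.11 against at most 3.38 on the other 23 arrays. Its values also entered the pooled spread, and so the SE of such genes in testis, among them that of Prm1. Without that array, left out after this was seen, the effects differed in 9455 genes.

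Most of the 10 genes called in testis with the largest mean change over the other tissues are genes raised by interferon. Being called in testis was a condition of their choice, so their rise in testis is a description. Usp18, which removes the ubiquitin-like protein ISG15, had 3.13, 3.48 and 3.48 in KO testis and 2.30, 2.37 and 2.52 in WT testis, and rose by 0.97 ± 0.19 as a lower bound (adjusted p = 9.5e-05), against 2.54 ± 0.10 over the other 4 tissues. The difference of -1.57 ± 0.21 passed the test (adjusted p = 6.3e-07), but with testis values at the floor of the arrays a smaller rise cannot be read from it. Tgtp1, a GTPase against intracellular pathogens, had 6.13, 5.77 and 5.36 in KO and 3.61, 3.33 and 3.21 in WT testis, and rose by 2.37 ± 0.29 as a lower bound, which is 1.04 ± 0.32 above the other tissues (adjusted p = 0.00816). Ifi27, of mitochondria and the nuclear envelope, rose by 1.82 ± 0.12 in testis, 0.44 ± 0.13 above the others. Lgals3bp, a secreted binder of galectin, rose by 0.93 ± 0.24 in testis, with a difference of -0.64 ± 0.27 (adjusted p = 0.0477). Rsad2 rose by 0.80 ± 0.16 in testis, a lower bound, and its difference of -0.59 ± 0.17 carries the same limit as that of Usp18. For Rtp4, Tnni1, Igtp, Gbp10 and Oasl2, the testis changes of 0.98 to 1.63 are all lower bounds, and no difference from the other tissues can be read.

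Genes of the stress response lay on both sides of the other tissues. Atf5, a relative of Atf4, had 5.86, 5.65 and 5.49 in KO testis and 5.50, 5.62 and 5.86 in WT testis and changed by 0.00 ± 0.20, against 0.84 over the other tissues, a difference of -0.84 ± 0.23 (adjusted p = 0.00259). Trib3 and Asns also lay below the other tissues, by -0.96 ± 0.33 (adjusted p = 0.0154) and -1.61 ± 0.50 (adjusted p = 0.00788), with Trib3 at the floor of the arrays in testis of both genotypes. Atf4, Psat1, Slc3a2 and Gpt2 lay above them, by 1.42 ± 0.16, 1.93 ± 0.42, 1.60 ± 0.16 and 2.25 ± 0.21. Mars1 stood farther above, by 2.92 ± 0.14 (adjusted p = 2.42e-15), with a mean of 0.14 elsewhere.

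WT replicate 3 carried transcripts of the epididymis, the duct that receives sperm from the testis. The gene farthest above the other arrays was Lcn5, a lipocalin of the epididymis, with 2.57, 2.63 and 2.53 in KO testis and 2.83, 2.82 and 11.70 in WT testis. The peroxidase Gpx5, secreted by the proximal epididymis, had 3.10, 3.24 and 3.40 in KO and 3.21, 3.52 and 11.82 in WT testis. On the other 5 arrays both were near the array median. Lcn8, Adam7, Epp13, Teddm2, Pate5, Lypd8, Cst11 and Rnase10 completed the first 10, between 8.62 and 10.71 on WT replicate 3. Of 21 measured genes of the epididymis list 16 lay more than 2 above every other testis array there, and Lcn2, Cst12, Defb19, Aqp9 and Pate4 did not.

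Calls in this list rested on that array. With it 18 of 21 were lower in KO testis and 3 higher, with a median of -1.99, and without it 9 were lower and 3 higher, with a median of -0.16. A fit of the 6 testis arrays alone called 2 lower. Cst12, Defb19 and Lcn2 were higher in KO testis under both, although Lcn2 was not called without WT replicate 1 (1.66, adjusted p = 0.0511), and their levels were high on all testis arrays. Cst12, a cystatin that Sertoli cells also make, had 12.21, 12.30 and 11.99 in KO and 9.76, 9.82 and 10.95 in WT testis, and rose by 1.99 ± 0.21 (adjusted p = 6.96e-09). Of all genes, 174 lay more than 1 above the other 5 arrays on WT replicate 3, of which 83 were called lower in KO testis, and 28 without that array. Among 12 genes of rete testis and efferent ducts 7 were lower (58.3%) and 1 higher (8.33%), or 5 and 1 without it, with medians of -0.70 and -0.21. Car2, a carbonic anhydrase, changed by -2.93 ± 0.24 and Krt8, a keratin of simple epithelia, by -2.62 ± 0.25, both lower bounds, with 3.10, 3.39 and 3.80 for Krt8 in KO and 5.66, 5.50 and 7.0 in WT testis. The folate receptor Folr1 rose by 2.02 ± 0.29.

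**Figure D5:**
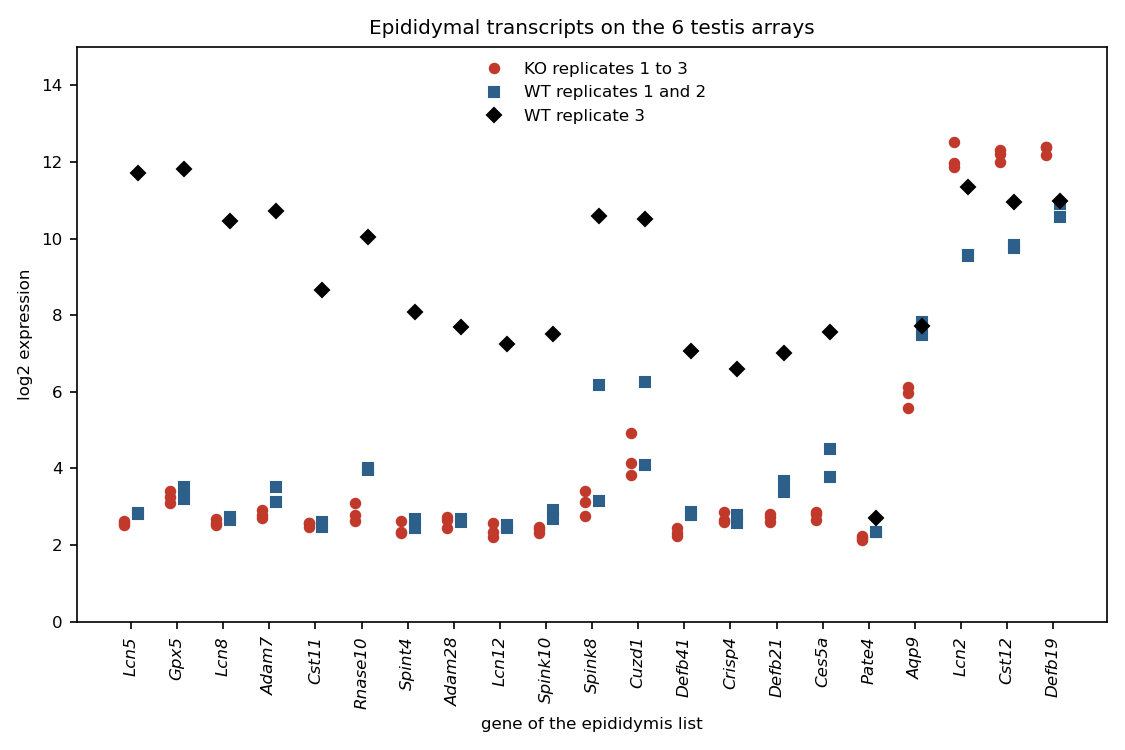
Log2 expression of the 21 measured genes of the epididymis list on the 6 testis arrays, sorted by how far WT replicate 3 (black) lies above the others. KO replicates are red and WT replicates 1 and 2 blue, and 16 genes have WT replicate 3 more than 2 above every other array.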

How the data were processed

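Total RNA of 5 tissues was labelled by the 3' in vitro transcription method and hybridised to Affymetrix mouse arrays, per the labels' protocols. The deposited values are log2 expression values after RMA in R 2.14.0, per the submitters' processing notes. Whether the 30 arrays were normalised together is not given in the sources used here. Of 45141 probe sets 28898 were assigned to 1 gene symbol, 551 to several and 15588 to none. Where a gene had several probe sets, the one brightest on average across the 30 arrays was kept, leaving 17097 genes. Limma 3.58.1 in R 4.3.3 fitted 10 group means (20 residual degrees of freedom), with Benjamini-Hochberg adjustment over all genes. On simulated data for the testis comparison over 17097 genes, 88% of changes of 1 and 99% of changes of 2 were recovered, with 12 other genes called. There 100 genes were given each size of change, against 9605 genes called in the data, and no floor was set. Those shares therefore do not carry over to the data as they stand.

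Genes and lists were chosen with earlier results of these data known. Of 812 listed genes 683 were measured. Named were Clpp, the 4 largest called changes of each list with a mean of at least 6 in either genotype and groups that did not overlap, up to 3 members called the other way, all members of lists of at most 8, both members of pairs, ranks 11 to 30 of each direction, the 10 genes called in testis with the largest mean change over other tissues, and the 10 genes farthest above the other arrays on WT replicate 3. Other genes named in the text were chosen after their values were seen, for their known roles. Same-numbered KO and WT testis arrays had correlations of their deviations of -0.051, 0.084 and -0.127, and arrays of unlike number between -0.199 and 0.222. These values show no pairing by number, but with 3 arrays per group they cannot exclude it. Alternatives were filters on low values, other fits and leaving out each array.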

Additional observations from a re-analysis of the deposited data

Results flagged for a closer look

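The KO effect in testis differed from the mean effect of the other 4 tissues in 9483 genes, by the test of that difference. Among the genes shared with the other tissues, the difference was -1.57 for Usp18, -0.64 for Lgals3bp and -0.59 for Rsad2, and it was 0.44 for Ifi27 and 1.04 for Tgtp1. The testis changes of Usp18, Rsad2 and Tgtp1 are lower bounds, since their WT means lay near the floor of the arrays, so a smaller rise of Usp18 and Rsad2 in testis cannot be read from them.

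Probe sets with no assigned gene lie outside the comparisons of genes. Of these 15588 probe sets 4935 were called in testis (31.7%), 3202 higher (20.5%) and 1733 lower (11.1%) in KO testis.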

How the results depend on the processing

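With the genes above the median mean of all arrays only, 6393 of 8548 were called, and the effect differed from the other tissues in 6204. Higher calls numbered 4744, against 5608 without the filter. Lower calls numbered 1649, against 3997, and those lower by at least 1 numbered 793, against 2260. Lower calls were thus lost more often than higher calls, which the smaller number of genes alone does not account for. The mean of this filter is taken over all 30 arrays, 24 of them of other tissues. A gene bright only in testis can therefore be left out by it. The part of this in the loss was not tested. That filter moved the share of calls that were higher to 74.2%, against 58.4% without it. It also turned the median of the germ cell kinases to 0.14 (8 genes left), of the reticulum and ubiquitin genes to 0.35 (10 left) and of the epididymis list to 1.73 (4 left). With a testis mean of at least 6, 6030 of 7102 genes were called, 3665 higher and 2365 lower, and the effect differed in 5921. Leaving out each testis array in turn gave between 8937 and 9292 calls. Pairing of same-numbered arrays was not shown, and a fit with the replicate block gave 9525 calls. A fit of the testis arrays alone gave 9316. Without muscle WT replicate 1, an alternative chosen after seeing the data, 9598 were called. Of 293 named genes followed through the alternatives 251 were called, and 21 lost their call, 12 gained one and 4 reversed under at least 1 alternative. The 4 depended on the probe set. With the set brightest in testis Calr3 was at -4.20 and Clgn at -0.88, and with the mean of all sets Calr3 was at -2.61, Clgn at -0.40, Pmpca at -0.41 and Yme1l1 at 0.29. Aplp1 was at 0.36 (adjusted p = 0.0601) when probe sets that can match several transcripts were left out, and Gbp10 at 0.48 (adjusted p = 0.143) with the mean of all its probe sets. The cause was not tested. Weakly hybridised genes are limited by the floor of the arrays, so their changes are bounds.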

Other observations

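Probe sets of 1 gene can read different transcript ends. Among genes listed, paired or ranked here 587 were called, and 239 of them had another probe set. In 28 such a set moved the other way at an unadjusted p under 0.05 from limma, so list counts depend in part on the set that was kept. Of 7180 genes with more than 1 probe set, 143 (1.99%) had probe sets called opposite ways by at least 1, and in 90 of them both probe sets had a mean of at least 6 in either genotype. For Atl3, which shapes the endoplasmic reticulum, one probe set had 6.30, 5.96 and 6.95 in KO testis and 11.22, 11.28 and 11.03 in WT testis, a change of -4.77 ± 0.24. Another had 6.16, 6.32 and 6.13 in KO and 4.52, 4.18 and 5.01 in WT testis, a change of 1.64 ± 0.24. The same split was found for Hipk1, a nuclear kinase, at -4.39 and 1.61, for Cdyl, a chromatin protein, at -4.46 and 1.53, for the deubiquitinase Usp12 at -4.88 and 1.02, and for the membrane carrier Scamp1 at -3.88 and 1.60.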
